A study of Mus musculus with 6 samples.

Results

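The levels of 10 transcripts of leucine sensing and of mTORC1 control were followed in HCC3-4, a line of liver tumour cells established from mice with a MYC transgene. The set comprised Mtor and Rptor of mTORC1, the Rag GTPases Rraga, Rragc and Rragd, the switch Rheb with its brake Tsc1 and Tsc2, the leucine sensor Sesn2, and Depdc5 of the GATOR1 complex. All 10 named genes were present among the 11866 genes of the deposited table, and all 10 passed the filter of a mean of at least 1 FPKM (fragments relative to the length of the gene and to the size of the library). The table was made by RNA-seq of poly(A)-captured RNA from 3 libraries of cells stably transfected with a hairpin against Sf3b3 (KD) and 3 libraries of cells with the empty pLKO.1-TRC control (PLKO). Both groups carry the MYC background of the line, and the promoter that drives the transgene is not stated. The labels name neither a further hairpin nor a rescue, so loss of Sf3b3, off-target effects of its hairpin and chance differences between the transfected populations cannot be told apart. Separate cultures behind the libraries are not stated, and p-values therefore measure the spread between libraries, which may be technical.

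mTORC1 is a protein kinase complex that promotes protein synthesis and growth when nutrients and growth factors are present. Amino acids act through the Rag GTPases, heterodimers of RagA or RagB with RagC or RagD that bring mTORC1 to the lysosome, where Rheb activates it. Sestrin2 binds leucine, and without leucine it inhibits GATOR2, which frees GATOR1 to switch RagA or RagB off. Growth factors act through the TSC complex, which switches Rheb off.

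Between 15140441 and 17566101 reads fell on listed genes in the KD libraries and between 16179939 and 17463788 in the PLKO libraries. Sf3b3, the targeted gene and a subunit of the SF3b splicing complex, stood at 10.3, 9.56 and 13.9 FPKM in KD and at 22.6, 28.7 and 29.2 FPKM in PLKO, a log2 fold change of -1.26 (standard error, SE, 0.23, limma adjusted p = 0.037). Its groups did not overlap. Of 15 hepatocyte markers 4 were listed (Afp, Foxa1, Krt8 and Krt18) and 11, with Alb, Ttr and Hnf4a among them, were not. Their summed level ran from 67.2 to 99.2 FPKM in KD and from 69.3 to 100.0 FPKM in PLKO. Most of it was Krt8, at a mean of 62.7 FPKM in KD and 68.2 FPKM in PLKO. Afp was at 1.98, 1.42 and 0.814 FPKM in KD and at 0.396, 0.302 and 0.467 FPKM in PLKO. Krt18 was at 8.41, 9.31 and 9.6 FPKM in KD and at 6.61, 5.95 and 5.27 FPKM in PLKO. Both were above every PLKO library in every KD library, as were 13.4% of all tested genes. Krt18 was not called (limma adjusted p = 0.1) and Afp did not pass the filter. Foxa1 and Krt8 overlapped between groups. Of 7 leukocyte markers Cd68 and Cd79a were listed, with a sum of 46.9 to 98.9 FPKM in KD and 10.1 to 42.2 FPKM in PLKO, while Ptprc was not listed. Most of it was Cd68, at a mean of 69.7 FPKM in KD and 23.6 FPKM in PLKO (limma adjusted p = 0.075, and 0.0018 with the replicate number as a block). Cd79a was called higher (log2 fold change 3.77, limma adjusted p = 0.0468), on 108, 87 and 62 reads in KD and 4, 0 and 20 reads in PLKO. Of 7 stellate cell and fibroblast markers Col1a1, Col1a2, Col3a1 and Pdgfrb were listed. Their sum was 39.8 to 66.5 FPKM in KD and 94.6 to 144.0 FPKM in PLKO. Col3a1 (log2 fold change -1.24, limma adjusted p = 0.0507) and Pdgfrb (-0.96, limma adjusted p = 0.064) were called lower with the replicate block alone (limma adjusted p 0.0045 and 0.012). Col1a1 was called by neither fit and Col1a2 did not pass the filter. None of 5 endothelial markers was listed. The part of these marker shifts in the results below was not tested. In bulk RNA, a change in the share of cells of a type and a change in RNA per cell cannot be told apart. KD 3 stood nearer to PLKO 3 (correlation of log2 FPKM over the 10770 tested genes 0.956) than to KD 1 (0.914) or KD 2 (0.944), so calls of named genes that change without KD 3, without PLKO 3 or without both are given both ways. For the cell type markers, Sesn1, Sesn3 and the aminoacyl-tRNA synthetases named beside Lars only fits with all 6 libraries are given.

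Rragc and Rraga were the most abundant of the 10 in both groups on the FPKM scale, which corrects for length. In KD cells Rragc had the highest mean, 63.9 ± 10.3 FPKM (SD, n = 3), followed by Rraga at 56.5 ± 10.3, Rragd at 21.5 ± 2.81 and Rheb at 20.2 ± 3.78 FPKM. In PLKO cells Rraga was highest at 68.9 ± 9.87 FPKM (SD, n = 3), ahead of Rragc at 40.9 ± 12.6 and Rheb at 20.0 ± 1.05 FPKM, with Rragd behind Sesn2 at 12.5 ± 3.84 FPKM. The ranges of Rragc and Rraga overlapped in KD and were apart in PLKO, and those of Rragd and Rheb overlapped in KD. Depdc5 was last in both groups, at 3.25 ± 0.991 FPKM in KD and 3.33 ± 0.396 FPKM in PLKO. Among the lower genes neighbours in the order mostly overlapped, as did Tsc1, Mtor and Sesn2 in KD, and Sesn2, Rragd, Mtor, Tsc2, Tsc1 and Rptor, each with the next, in PLKO. Every member was covered by between 303 (Sesn2 in KD 3) and 3823 reads (Rragc in KD 1) per library.

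**Figure D1:**
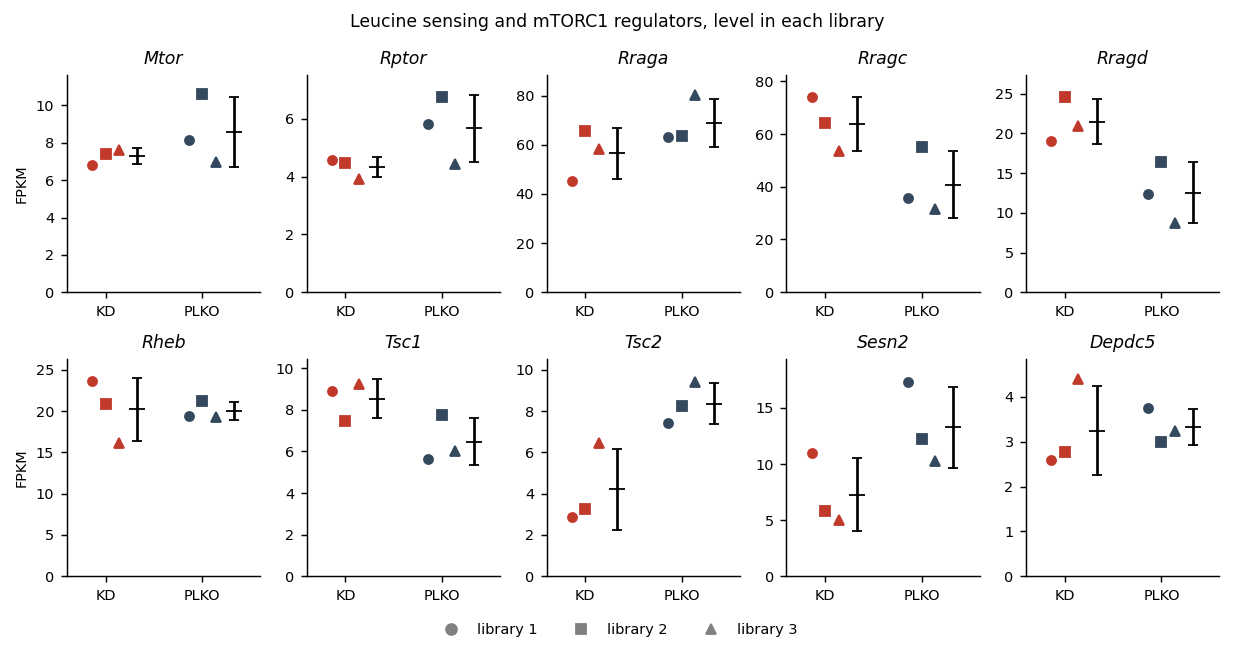
Level in FPKM (y axis, from 0) of the 10 transcripts in the 3 KD and the 3 PLKO libraries (x axis). Points are libraries, with the number given by the symbol, and bars are the mean ± SD. The groups do not overlap for Rragd, higher in KD, and for Tsc2, lower in KD.

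None of the 10 genes passed the limma test (adjusted p under 0.05), which called 2.92% of the 10770 tested genes. At an unadjusted p under 0.05 limma gave 4 of the 10, Tsc2, Rragd, Sesn2 and Rragc, against 27.6% of all tested genes, and limma-voom on recovered reads also called none of the 10. With the replicate number as a block 3 of the 10 were called, Rragd higher and Tsc2 and Sesn2 lower, against 19.3% of all tested genes. The median log2 fold change was -0.14 over the 10 genes and -0.04 over all tested genes, with 4 members above 0 and 6 below. With limma array weights 6 of the 10 were called, against 56.0% of all tested genes. The groups did not overlap for 2 of the 10, against 32.1% of all tested genes. These were Rragd, above PLKO in KD as 13.4% of all tested genes were, and Tsc2, below PLKO as 18.8% were. No test of the set as a whole was made. Exact two-sided permutation tests of the 6 libraries gave p = 0.1 for Tsc2 and Rragd, the smallest that 3 against 3 libraries allow, and p from 0.2 to 1.0 for the other members.

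**Figure D2:**
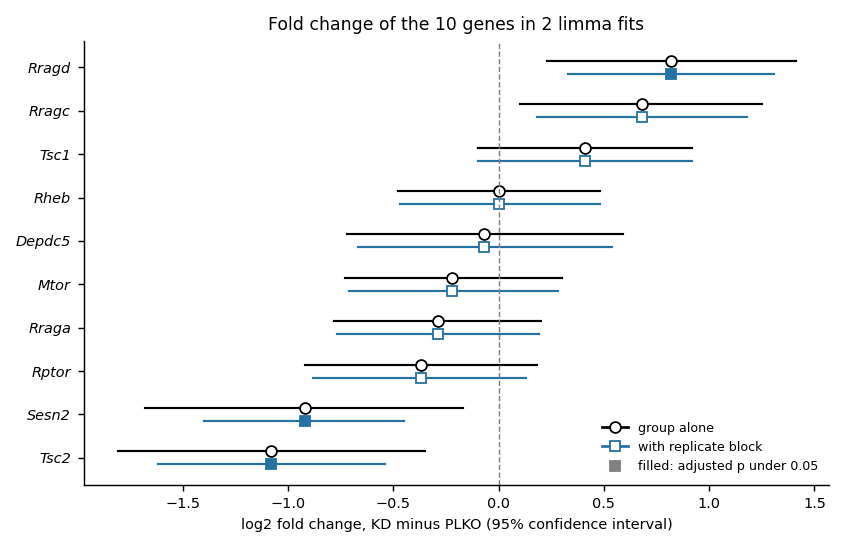
Log2 fold change, KD minus PLKO (x axis), with its 95% confidence interval for each of the 10 genes (rows). Circles are the limma fit with the group alone and squares the fit with the replicate block; filled symbols have an adjusted p under 0.05. Filled symbols appear with the block alone, for Rragd, Sesn2 and Tsc2.

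Neither core subunit of the complex passed the test. Mtor encodes the kinase itself and spans chromosome 4 from 148448611 to 148557683 on GRCm38, on the plus strand. It stood at 6.79, 7.42 and 7.61 FPKM in KD and at 8.17, 10.6 and 6.96 FPKM in PLKO. The groups overlapped, with PLKO 2 the highest library and the KD libraries close together. Its log2 fold change was -0.22 (95% confidence interval -0.73 to 0.30, limma adjusted p = 0.56). Rptor encodes Raptor, which holds substrates and binds the Rag dimer, and lies on chromosome 11 from 119602905 to 119899576. It stood at 4.57, 4.47 and 3.93 FPKM in KD and at 5.81, 6.75 and 4.45 FPKM in PLKO, so that 2 PLKO libraries were above every KD library and PLKO 3 was not. The log2 fold change of Rptor was -0.37 (interval -0.92 to 0.18, limma adjusted p = 0.34). Of its 13471 exonic bases 84 overlap Rptoros, an antisense gene. Both intervals leave room for changes of up to -0.73 for Mtor and -0.92 for Rptor on the log2 scale. Within libraries Mtor exceeded Rptor by a log2 difference of 0.57, 0.73 and 0.95 in KD and of 0.49, 0.65 and 0.64 in PLKO, ranges that overlap.

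The log2 fold changes of the Rag genes differed in sign, and none of the 3 members passed the limma test with the group alone and all 6 libraries. Rragd encodes RagD, the partner that can take the place of RagC in the heterodimer, and lies on chromosome 4 from 32983037 to 33022180. It stood at 19.0, 24.6 and 20.9 FPKM in KD and at 12.4, 16.4 and 8.73 FPKM in PLKO. All KD libraries were above all PLKO libraries, and PLKO 3 was the lowest. The log2 fold change was 0.82 (interval 0.23 to 1.41), with a limma adjusted p of 0.092 and of 0.027 with the replicate block, and KD exceeded PLKO by 0.62, 0.58 and 1.26 in the libraries numbered 1, 2 and 3. Rragc encodes RagC and lies on the same chromosome from 123917446 to 123936997. Its level was 74.0, 64.2 and 53.4 FPKM in KD and 35.8, 55.2 and 31.5 FPKM in PLKO. KD 3 and PLKO 2 overlapped, and the other libraries were apart by group. Its log2 fold change was 0.68 (interval 0.10 to 1.25, limma adjusted p = 0.13, and 0.057 with the replicate block). Of its 3341 exonic bases 264 overlap a gene on the opposite strand that is not among the listed genes.

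Rraga encodes RagA, the GTPase that GATOR1 switches off, in 1 exon on chromosome 4 from 86575668 to 86577285. It stood at 45.4, 65.8 and 58.3 FPKM in KD and at 63.0, 63.4 and 80.3 FPKM in PLKO. KD 2 lay above PLKO 1 and PLKO 2, so the groups overlapped, and the log2 fold change was -0.29 (interval -0.78 to 0.20, limma adjusted p = 0.40). Rragb, the close paralog of Rraga and no member of the set, stood at 6.58, 6.74 and 7.24 FPKM in KD and at 12.6, 18.2 and 10.1 FPKM in PLKO, without overlap. Its log2 fold change was -0.95 (SE 0.25, limma adjusted p = 0.064, and 0.018 with the replicate block). Rragb was called lower without KD 3 (-0.99, limma adjusted p = 0.0495), without PLKO 3 (-1.14, adjusted p = 0.035) and without both (-1.18, adjusted p = 0.01). In the same order these fits called 9.39%, 4.16% and 16.0% of all tested genes lower. Rragb was not called without KD 1, KD 2, PLKO 1 or PLKO 2, where limma called 0 of all tested genes. The coding sequences of the RagA and RagB genes are alike, and how reads that fit both were assigned is not stated.

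The start regions of Rragc and Rragd are shown because these partners both had positive log2 fold changes, called for Rragd with the block. They cover 250 bases before to 50 bases after the annotated gene start (RefSeq, GRCm38.p6), on the plus strand at chr4:123917183-123917482 for Rragc and chr4:32982748-32983047 for Rragd. Capitals mark CACGTG, the E-box core bound by TFEB, TFE3 and MYC, which was searched together with TGATGCAAT and TTGCATCA, letters of composite sites bound by ATF4 with C/EBP proteins. All were searched on both strands. CACGTG is its own reverse complement, and every match of TGATGCAAT holds TGATGCAA, the reverse complement of TTGCATCA.
Rragc: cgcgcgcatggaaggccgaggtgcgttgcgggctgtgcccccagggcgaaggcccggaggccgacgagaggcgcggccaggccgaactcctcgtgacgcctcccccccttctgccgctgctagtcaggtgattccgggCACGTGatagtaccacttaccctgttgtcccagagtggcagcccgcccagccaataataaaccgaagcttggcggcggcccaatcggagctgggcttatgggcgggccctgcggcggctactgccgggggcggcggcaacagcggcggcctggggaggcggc
Rragd: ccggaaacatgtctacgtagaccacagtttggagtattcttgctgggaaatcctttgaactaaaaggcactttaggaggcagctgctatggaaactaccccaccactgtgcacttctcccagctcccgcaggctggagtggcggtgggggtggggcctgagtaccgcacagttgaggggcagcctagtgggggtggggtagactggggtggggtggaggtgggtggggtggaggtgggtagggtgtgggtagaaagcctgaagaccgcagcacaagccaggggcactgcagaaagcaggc
The Rragc window held 1 CACGTG, beginning at position -112 from the gene start, and the Rragd window held none. Across 32851 windows of this length 7.15% held CACGTG, 0.192% TGATGCAAT and 0.895% TTGCATCA. Of the 10 members, all matched to a window, Rragc and Rheb held CACGTG (at -96 in Rheb) and none held either ATF4 sequence. A match describes the letters of the window and was not tied to binding by any file of the series.

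The partners of the TSC complex had log2 fold changes of opposite sign. Tsc2 encodes tuberin, the GTPase-activating subunit of the TSC complex, and lies on the minus strand of chromosome 17 from 24595816 to 24632630. It stood at 2.88, 3.28 and 6.46 FPKM in KD and at 7.42, 8.24 and 9.41 FPKM in PLKO, on 426, 498 and 1089 reads in KD and 1291, 1324 and 1432 reads in PLKO. The groups did not overlap, and KD 3 lay nearer to PLKO 1 than to KD 1 and KD 2. At 47.3% of the PLKO level, Tsc2 had the largest difference of the 10 in size (log2 fold change -1.08, interval -1.81 to -0.35, limma adjusted p = 0.081). The replicate block gave an adjusted p of 0.013. When KD 3 was left out, Tsc2 was called lower (-1.44, limma adjusted p = 0.016), as were 9.39% of all tested genes. When PLKO 3 was left out as well, it was called at -1.35 (limma adjusted p = 0.0057), as were 16.0% of all tested genes. Tsc2 shares 693 of its 9620 exonic bases with Pkd1, the polycystin gene on the opposite strand, and whether counting used strand is not stated. Pkd1 did not pass the test, at 7.66, 6.09 and 8.29 FPKM in KD against 4.00, 4.46 and 6.27 FPKM in PLKO, with KD 2 below PLKO 3 (log2 fold change 0.60, limma adjusted p = 0.17).

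The start region of Tsc2 is shown as that of the member with the largest difference. It covers chr17:24632578-24632877 on the minus strand (RefSeq, GRCm38.p6) and holds none of the searched sequences.
Tsc2: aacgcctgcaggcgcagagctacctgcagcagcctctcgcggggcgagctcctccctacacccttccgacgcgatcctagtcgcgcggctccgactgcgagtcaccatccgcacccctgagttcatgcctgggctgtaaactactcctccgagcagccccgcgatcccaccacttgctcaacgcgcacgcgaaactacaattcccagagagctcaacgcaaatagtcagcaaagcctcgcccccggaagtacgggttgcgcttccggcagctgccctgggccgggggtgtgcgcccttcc

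Tsc1 encodes hamartin, which stabilises tuberin, and lies on chromosome 2 from 28641228 to 28691167. It stood at 8.90, 7.48 and 9.25 FPKM in KD and at 5.63, 7.74 and 6.03 FPKM in PLKO. KD 2 and PLKO 2 overlapped and the other libraries were apart by group, with a log2 fold change of 0.41 (interval -0.10 to 0.92, limma adjusted p = 0.26). Rheb, the GTPase that activates mTORC1, lies on chromosome 5 from 24802823 to 24842624. It was at 23.6, 20.9 and 16.1 FPKM in KD and at 19.4, 21.2 and 19.3 FPKM in PLKO. KD 1 was the highest and KD 3 the lowest of all 6 libraries, so the KD range enclosed the PLKO range. The 95% interval of its log2 fold change ran from -0.48 to 0.48 (limma adjusted p = 1.0).

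Set against each other within a library, where a scaling error common to all genes cancels, the partners gave the following pattern, described here without a test because the pairs were picked with these values known. Tsc1 exceeded Tsc2 by a log2 difference of 1.63, 1.19 and 0.52 in KD and was below it in PLKO, at -0.40, -0.09 and -0.64. The ratio of Tsc1 to Tsc2 was thus 3.09, 2.28 and 1.43 in KD and 0.758, 0.939 and 0.641 in PLKO. Rragd stood below Rraga in every library, by a log2 difference of -1.26, -1.42 and -1.48 in KD and of -2.35, -1.95 and -3.20 in PLKO. For Rragc against Rraga the differences were 0.70, -0.04 and -0.13 in KD and -0.82, -0.20 and -1.35 in PLKO. None of these 3 pairs overlapped between groups, though Rragc against Rraga was apart only narrowly, at -0.13 in KD 3 and -0.20 in PLKO 2. The pairs of Rragd and of Rragc share Rraga and are not independent. Of single tested genes 32.1% did not overlap, and no such share was computed for pairs. Rragd against Rragc did overlap, at -1.96, -1.39 and -1.35 in KD and -1.53, -1.75 and -1.85 in PLKO. Sesn2 against Depdc5 overlapped too, with KD 1 at 2.09 above PLKO 2 at 2.03. So did Rragb against Rraga, with KD 1 at -2.79 above PLKO 3 at -2.99. Eif4ebp1 against Eif4ebp2, given below, did not overlap.

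**Figure D3:**
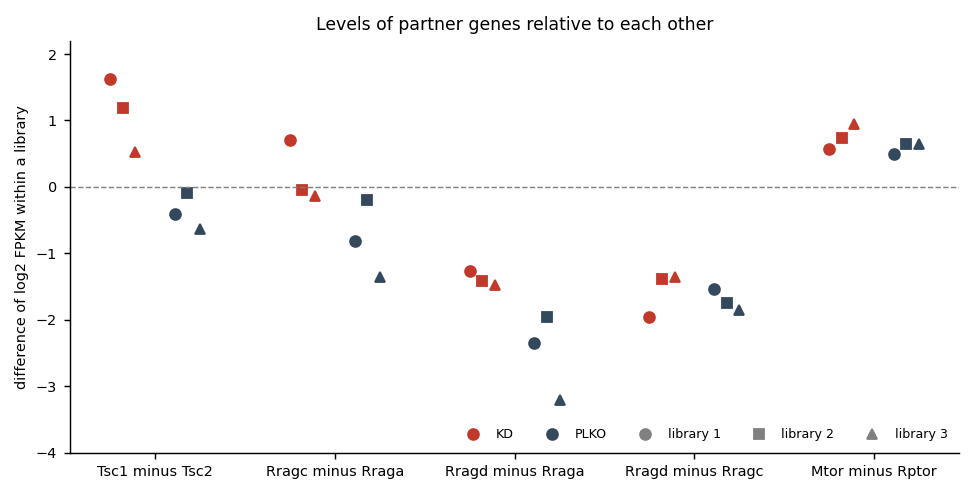
Difference of log2 FPKM between partner genes within a library (y axis) for 5 pairs (x axis), with KD libraries in red left of PLKO libraries in dark blue. Tsc1 lies above Tsc2 in all KD libraries and below it in all PLKO libraries, while Rragd minus Rragc and Mtor minus Rptor overlap between groups.

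Sesn2 encodes Sestrin2, the leucine sensor, which is also known as a target of the stress factor ATF4, and lies on the minus strand of chromosome 4 from 132492032 to 132510501. It stood at 11.0, 5.79 and 5.00 FPKM in KD and at 17.3, 12.2 and 10.3 FPKM in PLKO, on 590, 317 and 303 reads in KD and 1085, 708 and 565 reads in PLKO. KD 1 lay just above PLKO 3, so the groups overlapped, while in each number the KD library was the lower, by log2 differences of -0.65, -1.08 and -1.04. The log2 fold change was -0.92 (interval -1.68 to -0.17), with a limma adjusted p of 0.12 and of 0.015 with the replicate block. The paralogs Sesn1 and Sesn3 had log2 fold changes of 0.54 (limma adjusted p = 0.26) and -0.58 (limma adjusted p = 0.46), each with overlap between groups. Neither paralog was called with the block. The start region of Sesn2 is shown because this member was called lower with the block and belongs to the ATF4 targets by background knowledge; at chr4:132510407-132510706 on the minus strand (RefSeq, GRCm38.p6) it holds none of the searched sequences.
Sesn2: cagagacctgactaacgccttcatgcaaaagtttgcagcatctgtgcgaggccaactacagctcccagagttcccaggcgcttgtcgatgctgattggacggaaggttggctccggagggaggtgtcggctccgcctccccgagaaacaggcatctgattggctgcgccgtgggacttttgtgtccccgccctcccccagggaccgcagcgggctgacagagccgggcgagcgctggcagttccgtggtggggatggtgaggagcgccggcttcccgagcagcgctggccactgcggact
Depdc5, the GATOR1 subunit that binds the Rag GTPases, lies on chromosome 5 from 32863701 to 32994236. It stood at 2.59, 2.77 and 4.39 FPKM in KD and at 3.76, 2.99 and 3.23 FPKM in PLKO. KD 3 was the highest of the 6 libraries and KD 1 the lowest. The log2 fold change was -0.07 (interval -0.72 to 0.59, limma adjusted p = 0.90), and its sign turned without KD 1, without KD 2 or without PLKO 1 (0.07, 0.03 and 0.02).

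Among all tested genes, the profiles most like that of Tsc2 over the 6 libraries, each gene centred on its own mean, were those of Sh3bp5, Mgmt and Ubr1. Their root mean square differences from Tsc2 were 0.062, 0.068 and 0.088 on the log2 scale. Ubr1, a ubiquitin ligase of the N-degron pathway, stood at 2.0, 2.26 and 5.02 FPKM in KD and at 5.27, 5.68 and 5.93 FPKM in PLKO. Mgmt, a DNA repair protein, stood at 1.16, 1.29 and 2.25 FPKM in KD and at 2.77, 3.16 and 3.47 FPKM in PLKO. Sh3bp5 stood at 4.05, 4.48 and 8.30 FPKM in KD and at 9.51, 11.6 and 13.4 FPKM in PLKO. In all 3 the KD 3 library was the highest of its group, as for Tsc2, and none passed the limma test with the group alone (adjusted p 0.070 for Sh3bp5, 0.092 for Mgmt and 0.12 for Ubr1). With the replicate block all 3 were called lower (limma adjusted p 0.0091 for Sh3bp5, 0.031 for Mgmt and 0.031 for Ubr1), as Tsc2 was. They were also called lower without KD 3 (limma adjusted p 0.017, 0.026 and 0.017 in the same order) and without both libraries numbered 3 (0.0061, 0.015 and 0.0067). These 3 genes were picked for their likeness to Tsc2 over the same 6 values. Their shared pattern and calls follow largely from that choice and are no separate result.

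The wider pathway held genes that did pass the test. Of 112 tested genes from 10 lists of the pathway, 8 were called lower and 0 higher (7.14%, against 1.79% of all tested genes called lower and 1.12% called higher). With the replicate block 6 were higher and 23 lower, against 8.19% and 11.1% of all tested genes. Without KD 3 the lists held 4 genes called higher and 17 lower, against 6.81% and 9.39% of all tested genes. Without PLKO 3 they held 1 higher and 14 lower, against 3.28% and 4.16%, and without both libraries 9 higher and 28 lower, against 11.9% and 16.0%. The lists were written with an earlier account of these data known, in which Slc7a5, Atf5 and Aldh1l2 already appeared, so these counts are a description. The 8 called genes were Slc7a5, Lars, Bckdk, Itfg2, Atf5, Aldh1l2, Nupr1 and Cebpg, the last named after its values were seen. None of the 8 was called without KD 1, KD 2, PLKO 1 or PLKO 2, where limma called 0 of all tested genes (1818, 1793, 2217 and 2315 at an unadjusted p under 0.05). Exons of Itfg2, Atf5 and Aldh1l2 overlap in part those of genes on the opposite strand (Nrip2 for Itfg2, Nup62 and Il4i1 for Atf5, D10Wsu102e for Aldh1l2), and reads from such stretches cannot be assigned without strand.

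**Figure D4:**
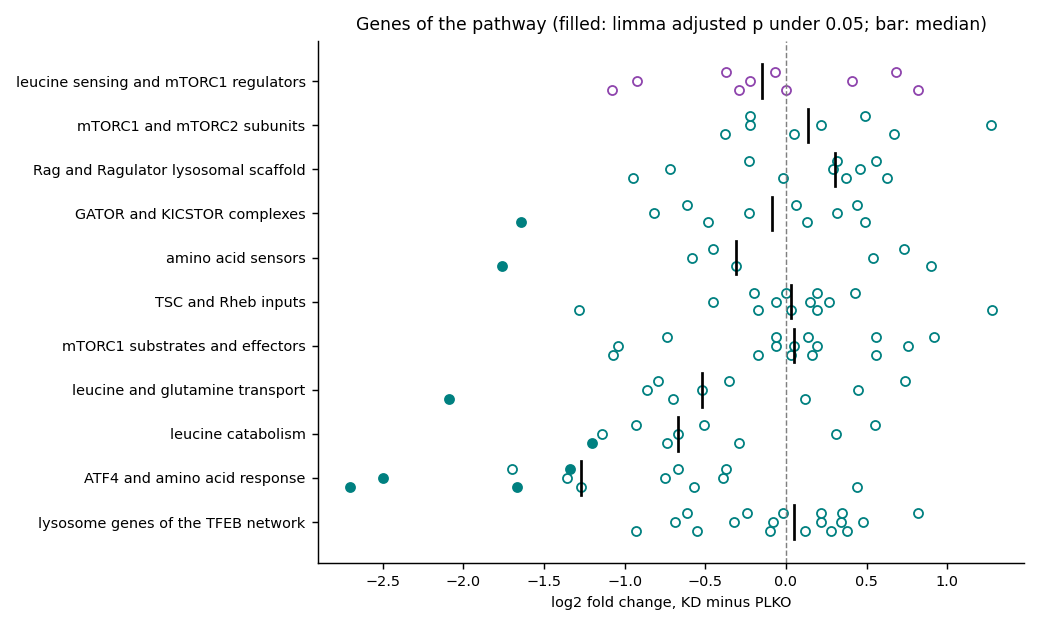
Log2 fold change, KD minus PLKO (x axis), of the 10 members (top row) and of the tested genes of 10 pathway lists (other rows). Filled points have a limma adjusted p under 0.05 and bars are medians. All filled points lie left of 0, in the lists of GATOR and KICSTOR, amino acid sensors, transport, leucine catabolism and the ATF4 response.

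In the lists of transport, sensing and catabolism 1 gene each was called, Slc7a5, Lars and Bckdk. Slc7a5, the transporter that brings leucine into the cell, fell to 47.0, 41.3 and 60.2 FPKM in KD, against 224, 177 and 227 FPKM in PLKO (log2 fold change -2.09, SE 0.22, limma adjusted p = 0.014). Lars, the cytosolic leucyl-tRNA synthetase, which has also been described as a leucine sensor for mTORC1, fell to 27.6, 27.9 and 37.3 FPKM in KD, against 108, 110 and 93.1 FPKM in PLKO (-1.76, SE 0.21, limma adjusted p = 0.022). Bckdk, the kinase that holds back branched-chain amino acid breakdown, fell to 7.86, 11.0 and 14.1 FPKM in KD, against 25.0, 21.1 and 27.9 FPKM in PLKO (-1.20, SE 0.26, limma adjusted p = 0.0473). In none of the 3 did the groups overlap, with KD below PLKO as for 18.8% of all tested genes. These 3 were named for their calls, so the separation is no separate result. Bckdk lost its call without PLKO 3 (-1.11, limma adjusted p = 0.0521), with quantile normalization, with median centring and without the mean-variance trend. In the transport list 1 of 9 tested genes was called and the median log2 fold change was -0.52. The block also called Slc3a2, the heavy chain that pairs with Slc7a5, and the amino acid transporter Slc7a7 lower (limma adjusted p 0.028 and 0.0497, against 0.13 and 0.22 without it), and both were called lower without both libraries numbered 3 (0.037 and 0.04). In the catabolism list 1 of 9 tested genes was called and the median was -0.67, and the block called 3 lower, against 11.1% of all tested genes.

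Of the other sensors and their complexes, Itfg2, a subunit of KICSTOR, the scaffold that holds GATOR1 at the lysosome, fell to 1.99, 1.91 and 2.26 FPKM in KD, against 6.27, 8.94 and 4.62 FPKM in PLKO (log2 difference -1.64, SE 0.29, limma adjusted p = 0.037). This was the 1 gene called of 10 tested in the GATOR and KICSTOR list, whose median was -0.08. The block also called Kptn, another KICSTOR subunit, lower (log2 fold change -0.82, limma adjusted p = 0.041, and 0.14 without it), as did the fit without KD 3 (-1.14, adjusted p = 0.034) and without both libraries numbered 3 (-1.0, adjusted p = 0.022). In the sensor list 1 of 7 tested genes was called, Lars, with a median of -0.31. With the block Castor2, of the CASTOR family of arginine sensors, was called higher (0.90, limma adjusted p = 0.027, and 0.12 without it). Of 13 tested genes of the ATF4 and amino acid response 4 were called lower and 12 had a negative log2 fold change, with a list median of -1.27, against 1.79% of all tested genes called lower and a median of -0.04. The block called 7 lower, against 11.1% of all tested genes. It added Psat1, Trib3 and Chac1 (limma adjusted p 0.045, 0.0034 and 0.038, against 0.075, 0.12 and 0.44 without it). PLKO 3 stood apart from PLKO 1 and PLKO 2 in part of this list. Ddit3, the stress factor CHOP, whose value is the list's median (SE 0.97), stood at 40.3, 36.5 and 19.9 FPKM in KD and at 110, 312 and 11.8 FPKM in PLKO. Chac1, a glutathione-degrading enzyme, stood at 13.7, 7.25 and 3.0 FPKM in KD and at 64.3, 35.9 and 2.2 FPKM in PLKO. Both were higher in KD 3 than in PLKO 3 and lower in the KD library of the other two numbers. In the libraries numbered 3 the list had 5 positive and 8 negative differences with a median of -0.85, against medians of -1.41 and -1.64 in those numbered 1 and 2. Without PLKO 3 limma called 8 of the 13 lower with a median of -1.60, without KD 3 it called 4 with a median of -0.94, and without both it called 8 with a median of -1.59. In the same order these fits called 4.16%, 9.39% and 16.0% of all tested genes lower. The genes called beyond the first 4 were Ddit3, Trib3, Chac1 and Cebpb, without PLKO 3 as well as without both. Atf5, a transcription factor of this response, fell to 18.5, 18.3 and 30.7 FPKM in KD, against 108, 111 and 238 FPKM in PLKO (-2.70, SE 0.35, limma adjusted p = 0.029). Aldh1l2, an enzyme of mitochondrial folate metabolism, fell to 3.31, 2.67 and 7.07 FPKM in KD, against 20.6, 33.6 and 16.2 FPKM in PLKO (-2.50, SE 0.40, limma adjusted p = 0.031). Nupr1, a stress-induced nuclear protein, and Cebpg, a C/EBP factor that pairs with ATF4, fell by 1.67 (SE 0.30, limma adjusted p = 0.037) and 1.34 (SE 0.25, adjusted p = 0.039) on the log2 scale. Cebpg lost its call without the mean-variance trend (limma adjusted p = 0.0534). Atf4 itself was at 185, 148 and 139 FPKM in KD and at 255, 242 and 132 FPKM in PLKO, with overlap (log2 fold change -0.37, limma adjusted p = 0.42).

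**Figure D5:**
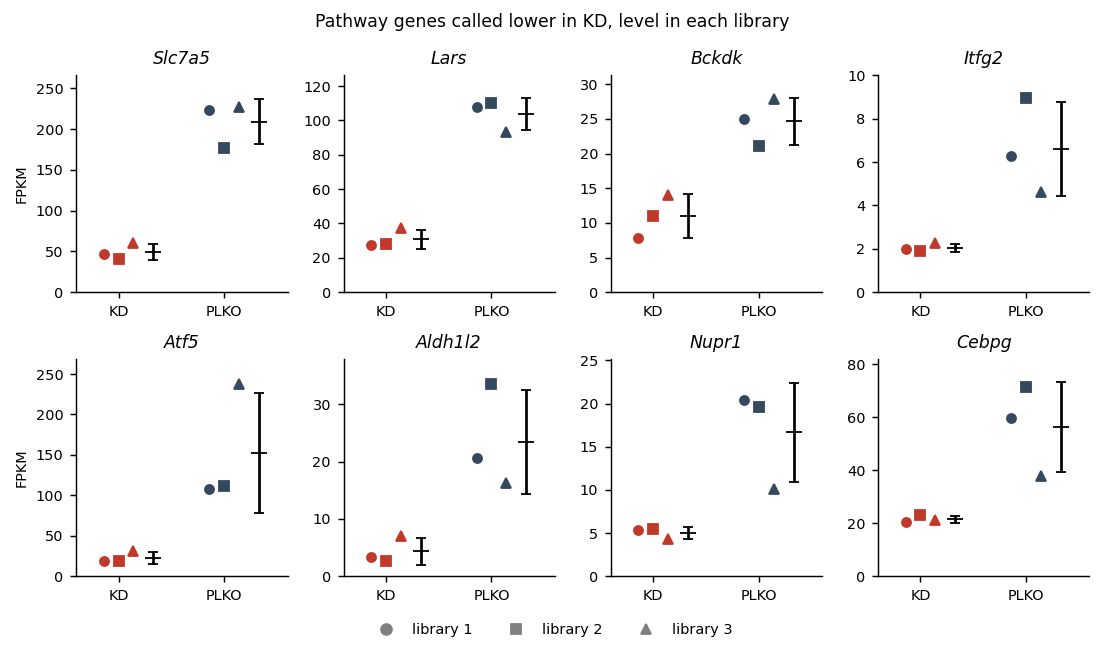
Level in FPKM (y axis, from 0) of the 8 pathway genes called lower in KD, in the 3 KD and the 3 PLKO libraries (x axis). Points are libraries and bars the mean ± SD. All KD libraries lie below all PLKO libraries for each gene, as for 18.8% of all tested genes.

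The other 5 lists held no gene called by limma with the group alone and all 6 libraries. In the list of mTORC1 substrates and effectors (15 tested, median log2 fold change 0.05) the lowest adjusted p belonged to Eif4ebp1, the translation repressor that mTORC1 phosphorylates. It stood at 52.8, 61.8 and 57.0 FPKM in KD and at 133, 140 and 86.2 FPKM in PLKO, with groups apart, a log2 fold change of -1.04 (SE 0.23) and a limma adjusted p of 0.0503, or 0.011 with the replicate block. Eif4ebp1 was called lower without KD 3 (-1.04, limma adjusted p = 0.039), without PLKO 3 (-1.26, adjusted p = 0.02) and without both (-1.26, adjusted p = 0.007), and also with the stricter filter of 5 FPKM, on log2(FPKM + 1), with median centring, array weights and voom on recovered reads. Rps6kb1, the ribosomal protein S6 kinase gene, stood at 6.87, 6.47 and 7.61 FPKM in KD and at 11.1, 12.0 and 11.8 FPKM in PLKO (-0.74, SE 0.20, limma adjusted p = 0.065, and 0.033 with the block), and was called lower without KD 3 (-0.80, adjusted p = 0.036) and without both libraries numbered 3 (-0.79, adjusted p = 0.026). With the block 2 genes of this list were higher and 3 lower, against 8.19% and 11.1% of all tested genes.

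Inputs to the TSC complex and to Rheb (13 tested, median 0.03) were led by Ddit4, a stress-induced inhibitor of mTORC1 that acts through the TSC complex. It stood at 94.1, 116 and 84.4 FPKM in KD and at 381, 238 and 146 FPKM in PLKO, with groups apart (log2 fold change -1.28, SE 0.33, limma adjusted p = 0.063, and 0.0076 with the block). It was called lower without PLKO 3 (-1.63, limma adjusted p = 0.018) and without both libraries numbered 3 (-1.53, adjusted p = 0.0079). Rhebl1, the paralog of Rheb, stood at 8.39, 6.80 and 3.42 FPKM in KD and at 3.11, 2.80 and 1.56 FPKM in PLKO (1.28, SE 0.40, limma adjusted p = 0.090, and 0.0067 with the block), and its exons overlap in part those of Dhh. It was called higher without KD 3 (1.66, limma adjusted p = 0.024) and without both libraries numbered 3 (1.36, adjusted p = 0.0062). No other gene of the list was called with the block.

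The list of Rag and Ragulator genes (10 tested, median 0.30) also held Flcn, Fnip1, Fnip2 and Sh3bp4, which encode subunits of neither. Their log2 fold changes were 0.32, 0.56, 0.63 and 0.37. Those of Rragb and of Lamtor1 to Lamtor5 were -0.95, -0.23, -0.72, 0.46, -0.02 and 0.29. The block called Rragb and Lamtor2 lower, against 11.1% of all tested genes. Lamtor2, a subunit of the Ragulator that anchors the Rag dimers, stood at 18.9, 27.7 and 31.2 FPKM in KD and at 36.2, 44.3 and 45.9 FPKM in PLKO (log2 fold change -0.72, SE 0.24, limma adjusted p = 0.099, and 0.035 with the block), and was called lower without KD 3 (-0.87, adjusted p = 0.0472) and without both libraries numbered 3 (-0.81, adjusted p = 0.0458). In the list of mTORC1 and mTORC2 subunits (8 tested, median 0.14) Prr5, a subunit of mTORC2, had a log2 fold change of 1.27 (SE 0.46, limma adjusted p = 0.12, and 0.040 with the block) at 0.639 to 2.59 FPKM over all libraries, and was called higher without both libraries numbered 3 (1.32, adjusted p = 0.0484). Rictor, the defining subunit of mTORC2, had one of 0.67 (SE 0.31, limma adjusted p = 0.19). Lysosome genes of the TFEB network (18 tested, median 0.05) had 9 positive and 9 negative values, and the block called Lamp1, a lysosomal membrane protein, higher (0.82, limma adjusted p = 0.12, and 0.028 with the block) and Atp6v0d1, a subunit of the proton pump, lower (-0.93, adjusted p = 0.099, and 0.022). Without KD 3 limma called Lamp1 higher (1.11, adjusted p = 0.034) and Atp6v0d1 lower (-1.20, adjusted p = 0.031), and without both libraries numbered 3 likewise (0.97, adjusted p = 0.029, and -1.20, adjusted p = 0.02).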

How the data were processed

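The authors deposited 1 table of log2 FPKM per gene and library, read as such from its values (-7.85 to 13.17). Per the submitters' processing notes the genome was GRCm38 and quality was checked with FastQC 0.11.7; aligner, counter, strand setting and gene filter: not given in the sources used here. These deposited log2 values hold a prior with a mean of 2.0 reads, seen from floors that 21 genes share across libraries. Whole reads followed from it and from exonic lengths (GENCODE M21 for 10975 genes, a scan of lengths for 891) for 100.0% of genes, within 0.01 reads. They give depth and 1 alternative.

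limma 3.58.1 (R 4.3.3) with a mean-variance trend was fitted to the deposited values of 10770 genes with a mean of at least 1 FPKM, with the group alone and 4 residual degrees of freedom. Benjamini-Hochberg adjusted p-values over all tested genes under 0.05 were called. FPKM are powers of 2 of the deposited values, and fold changes are KD minus PLKO. The prior shrinks fold changes where reads are few. The scripts were tested on simulated data.

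Deviations from the group means correlated at 0.18, 0.29 and 0.50 for libraries numbered 1, 2 and 3, all above the limit of 0.1, and equal numbers were therefore treated as pairs, on the data's evidence alone. KD 1 correlated more with PLKO 2 (0.30) than with PLKO 1 (0.18), and KD 2 with PLKO 1 at 0.27, so the pairing of libraries 1 and 2 is uncertain. Deviations sum to 0 within a group, so the likeness of KD 3 and PLKO 3 raises the correlations among libraries 1 and 2, equal or crossed. Passing the limit of 0.1 is thus no evidence that libraries 1 and 2 are paired by number. Only the libraries numbered 3 stood apart from the crossed pairs, whose correlations with them ran from -0.43 to -0.28. The block was chosen from these same values, and calls made with it rest on that choice. Blocked values stand beside named genes and counts whose call they change, except for the aminoacyl-tRNA synthetases named beside Lars.

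The members and lists were chosen with earlier results of these data known. Named are all members, Sf3b3, up to 3 called genes of each list by adjusted p or otherwise the 1 or 2 lowest, and the 3 genes most like the member with the largest change. Kptn, Castor2, Slc3a2, Slc7a7, Psat1, Trib3, Chac1, Ddit3 and Cebpb were named after their values were seen, for calls that the block or a left-out library changed. Sesn1 and Sesn3 were added as paralogs of Sesn2, also with their values seen. So were the aminoacyl-tRNA synthetases named beside Lars, which are not a full list. Alternatives changed the filter, scale, scaling, weights, variance trend, unit and libraries.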

Additional observations from a re-analysis of the deposited data

How the results depend on the processing

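The count of 314 called genes became 2080 with the replicate block, 6030 with array weights (whose estimation stopped before convergence), 151 without the mean-variance trend, 3009 without both libraries numbered 3, and ran from 0 to 1744 with 1 library left out. The count of called members, 0, became 3 with the block, 6 with array weights and 1 without both libraries numbered 3, and ran from 0 to 1 with 1 library left out. The 8 called pathway genes became 29 with the block, 76 with array weights and 37 without both libraries numbered 3, and ran from 0 to 21 with 1 library left out. The cause was not tested. The block called Rragd (0.82), Tsc2 (-1.08) and Sesn2 (-0.92), and changed the call of no other member or of Sf3b3. Array weights called Rragd (0.99), Rragc (0.78), Tsc1 (0.34), Rptor (-0.36), Tsc2 (-1.24) and Sesn2 (-1.41), and turned Rraga to 0.01, beside 56.0% of all tested genes called. Without both libraries numbered 3 Tsc2 was called (-1.35). Depdc5 turned to 0.01 with quantile normalization. Rheb, at 0.00058, turned to -0.00029 with voom on recovered reads, an alternative chosen after seeing the data. With 1 library left out, Tsc2 ran from -1.44 to -0.85 and was called without KD 3, Rheb from -0.12 to 0.15, Depdc5 from -0.31 to 0.07, and Sf3b3 from -1.43 to -1.15, with its call lost without KD 1, KD 2, PLKO 1 or PLKO 2 (limma adjusted p from 0.12 to 0.19). No other fold change of a member or of Sf3b3 changed its direction or its call. Rptor and Depdc5 gave no value with the stricter filter of 5 FPKM. edgeR, DESeq2 and voom with TMM scaling were not run: the deposited unit is log2 FPKM, and the recovered reads were tested with voom alone. Array weights called each pathway gene that the list rule named and that was not called with the group alone, except Rictor. With 3 libraries in each group, intervals of the members' log2 fold changes were up to 1.51 wide.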

Other observations

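Outside the 10 members, the 4E-BP genes Eif4ebp1 and Eif4ebp2 were singled out after their values were seen. Eif4ebp2, like Eif4ebp1 a repressor of cap-dependent translation, stood at 41.6, 44.8 and 45.6 FPKM in KD and at 20.0, 30.5 and 28.7 FPKM in PLKO, with groups apart (log2 fold change 0.76, SE 0.22, limma adjusted p = 0.076, and 0.031 with the replicate block). It was called higher without both libraries numbered 3 (0.80, limma adjusted p = 0.0457). Within libraries the ratio of Eif4ebp1 to Eif4ebp2 was 1.27, 1.38 and 1.25 in KD and 6.66, 4.57 and 3.01 in PLKO.

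Further genes of branched-chain amino acid breakdown, also named after their values were seen, were called lower with the replicate block and not with the group alone and all 6 libraries. Bckdhb, a subunit of the branched-chain ketoacid dehydrogenase, stood at 8.42, 10.1 and 13.3 FPKM in KD and at 16.2, 38.4 and 19.3 FPKM in PLKO (limma adjusted p = 0.081, and 0.014 with the block), and was also called without KD 3 (adjusted p = 0.048) and without both libraries numbered 3 (0.021). Bcat1, the cytosolic branched-chain transaminase, stood at 12.8, 9.02 and 6.63 FPKM in KD and at 17.0, 24.9 and 12.6 FPKM in PLKO (limma adjusted p = 0.11, and 0.021 with the block), and was also called without both libraries numbered 3 (adjusted p = 0.034).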
